A study of Mus musculus with 15 samples.

Results

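Chromatin-associated RNA of murine bone marrow-derived macrophages was compared between cells given lipopolysaccharide (LPS) for 4 h and untreated cells. The comparison takes the 3 libraries titled for the 4 h treatment and the 3 titled as untreated, 6 of the 15 libraries in the series. The other 9 were made 30 min, 1 h and 2 h after LPS and enter here to estimate the spread between libraries and to show earlier levels. All cells were C57BL/6 macrophages grown from bone marrow in medium with L929-conditioned medium and used on day 7 of differentiation. The treated cells received 10 ng/ml LPS. The 6 libraries held 7774234 to 11892599 estimated counts, spread over annotated transcripts and not over genes.

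LPS is a component of the outer membrane of Gram-negative bacteria, and macrophages sense it through the receptor TLR4. Signalling through adaptor proteins then activates NF-kB and interferon regulatory factors, which switch on inflammatory and antiviral genes. The earliest of these genes need no new protein. Later ones depend on factors made or secreted in the first wave, such as type I interferon, and on opening of chromatin at promoters and enhancers, while many genes of the resting macrophage are turned down. The RNA fraction that remains bound to chromatin is rich in transcripts still being made, so its levels lie closer to transcription than those of total RNA.

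The files name transcripts by Ensembl identifiers alone, and of 113193 transcripts 0 matched the reference table of 49997 mouse genes used here. Transcripts are therefore described by abundance, length and time course, at most 2 that rose and 2 that fell are given by identifier, and isoforms of one gene could not be grouped. For the same reason markers of macrophages and of other marrow cells were not checked, and no sequence is shown.

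At 4 h after LPS, 4097 transcripts were raised and 2895 lowered relative to untreated cells, which is 8.87% and 6.27% of the 46186 tested and 15.1% together. A call is an adjusted p under 0.05 in edgeR's quasi-likelihood test with the replicate number as a block. Raised transcripts had a median level of 6.30 CPM (counts scaled to an equal library size) in untreated cells and 35.1 CPM at 4 h, and their fitted log2 fold changes had a median of 2.39 (2.38 with transcripts at 0 in every untreated library placed at a bound of 3 counts per library). Lowered transcripts went from a median of 12.7 CPM to 2.54 CPM. Their median was -2.23 on the log2 scale (-2.16 when those with no count at 4 h were placed at the same bound). Over all tested transcripts the median was -0.09. In bulk libraries, fewer cells of a type and less RNA per cell cannot be told apart.

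The split between the directions depended on the scaling. With TMM factors, which place the typical transcript near no change, 58.6% of the calls were raised. With library size alone 2030 were raised and 6980 lowered (22.5% raised), and over everything tested the median then shifted to -0.88 on the log2 scale, so directions are relative to the typical transcript. No transcript called in one direction by the TMM fit was called in the other with library size alone or under any other setting tried. The number of calls also depended on the fit: 1808 raised and 1076 lowered without the block, and 367 raised and 52 lowered when only the 6 libraries were fitted.

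Most called changes were large. Of the raised transcripts, 3883 rose at least 2-fold, 2566 at least 4-fold and 848 at least 16-fold by the fitted values. Of the lowered, 2796 fell at least 2-fold, 1671 at least 4-fold and 597 at least 16-fold. The smallest called changes were 0.59 and 0.66 on the log2 scale. The median standard error was 0.45 for raised and 0.47 for lowered transcripts, so small changes seldom pass. Large called changes thus follow in part from the selection. Over all 46186 tested transcripts, 10268 had a fitted rise of at least 2-fold, 5158 of at least 4-fold and 1578 of at least 16-fold. Falls were not counted over all tested transcripts. A group of 107 raised transcripts had a count of 0 in every untreated library, and 224 lowered transcripts had 0 in every 4 h library. Among all tested transcripts 646 and 1312 did so, of which 539 and 1088 were not called. An estimated count of 0 can arise where the quantification gives all shared reads to another isoform.

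The 2 groups often did not overlap. All 3 libraries at 4 h lay above all 3 untreated libraries for 13.3% of tested transcripts and below them for 14.7%, called or not. Among the called, this held for 3570 of the 4097 raised and 2504 of the 2895 lowered. Within same-numbered pairs, which the block compares, all 3 went up for 4044 raised transcripts and down for 2870 lowered ones. Over all 46186 tested transcripts, all 3 pairs went up for 10492, of which 6448 were not called. Pairs that went down were not counted over all tested transcripts. The counts among called transcripts follow in part from the selection, since the same libraries made the calls.

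**Figure D1:**
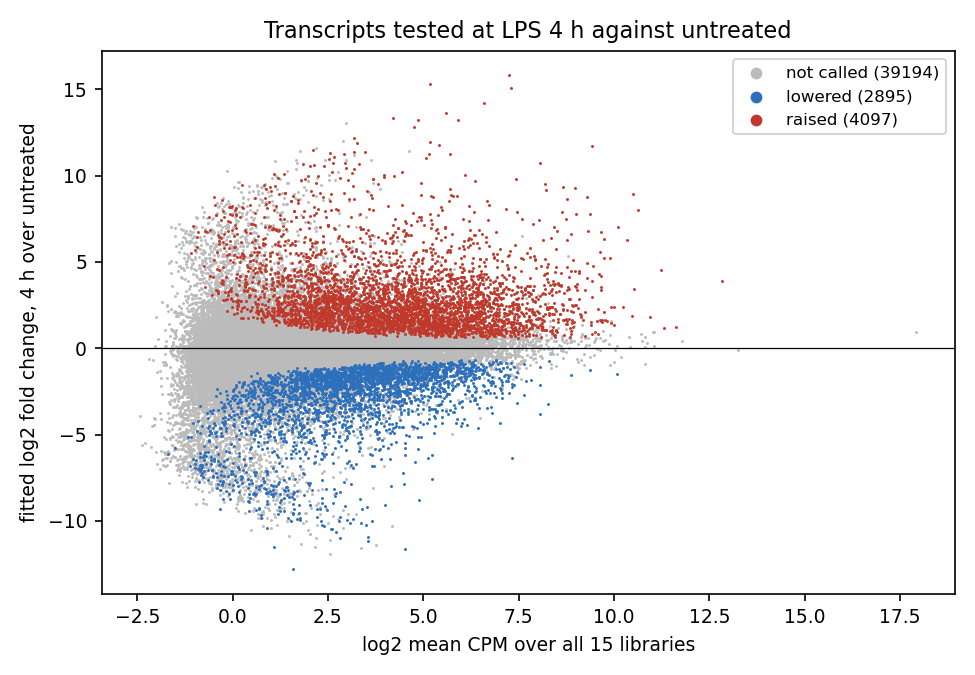
Fitted log2 fold change at 4 h over untreated cells against log2 mean CPM over all 15 libraries, with 1 point for each of the 46186 tested transcripts, coloured by call (4097 raised, 2895 lowered). Raised calls extend to the most abundant transcripts at the right, where lowered calls are few.

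Among abundant transcripts, calls were mostly raised ones. Of the 1265 transcripts with a mean of at least 100 CPM over all 15 libraries, 607 were raised (48.0%) and 77 lowered (6.09%). The class from 10 to 100 CPM, of 11606 transcripts, had 17.8% raised and 10.5% lowered, and the class from 1 to 10 CPM had 5.24% and 5.68%. The excess of raised over lowered transcripts in the most abundant class held with library size alone too, with 354 raised and 201 lowered. A mean over all libraries includes those in which induced transcripts are high. Sorted instead by the level in untreated cells, the 757 transcripts of at least 100 CPM had 181 raised and 138 lowered, and the 11267 of 10 to 100 CPM had 1439 raised and 1551 lowered. Precision rose with abundance as well: the median standard error of the log2 fold change was 1.42 under 1 CPM, 0.39 at 10 to 100 CPM and 0.34 at 100 CPM or more. A change in a rare transcript was therefore less detectable at this depth.

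CPM favours long transcripts, which collect more reads at the same number of molecules. TPM divides by transcript length. The 1058 transcripts with a mean of at least 100 TPM over all 15 libraries had 510 raised and 21 lowered. The 16468 of 10 to 100 TPM had 2626 raised and 1232 lowered. The 25120 of 1 to 10 TPM had more lowered (1586) than raised (888). The fold changes behind these counts are those of the same fit. As with CPM, a mean over all libraries includes those in which induced transcripts are high. Classes by the TPM in untreated cells were not made.

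Membership of the highest ranks changed. Of the 100 transcripts with the highest mean CPM in untreated cells, 29 were raised and 7 lowered by 4 h, and 64 were not called. Of the 100 with the highest mean at 4 h, 80 were raised and the other 20 not called. The 2 lists shared 44 transcripts. The 56 that entered the list by 4 h had a median of 63.3 CPM in untreated cells and 1268 CPM at 4 h. Those 56 were picked for their 4 h level, so this is a description of the ranks. The 56 that left had a median of 408 CPM in untreated cells and 490 CPM at 4 h. Of them 44 were not called, 7 were lowered and 5 raised. The lowest mean in the list was 318 CPM in untreated cells and 866 CPM at 4 h. Part of the difference in level between the lists comes from the TMM factors, which scale 4 h levels up.

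**Figure D2:**
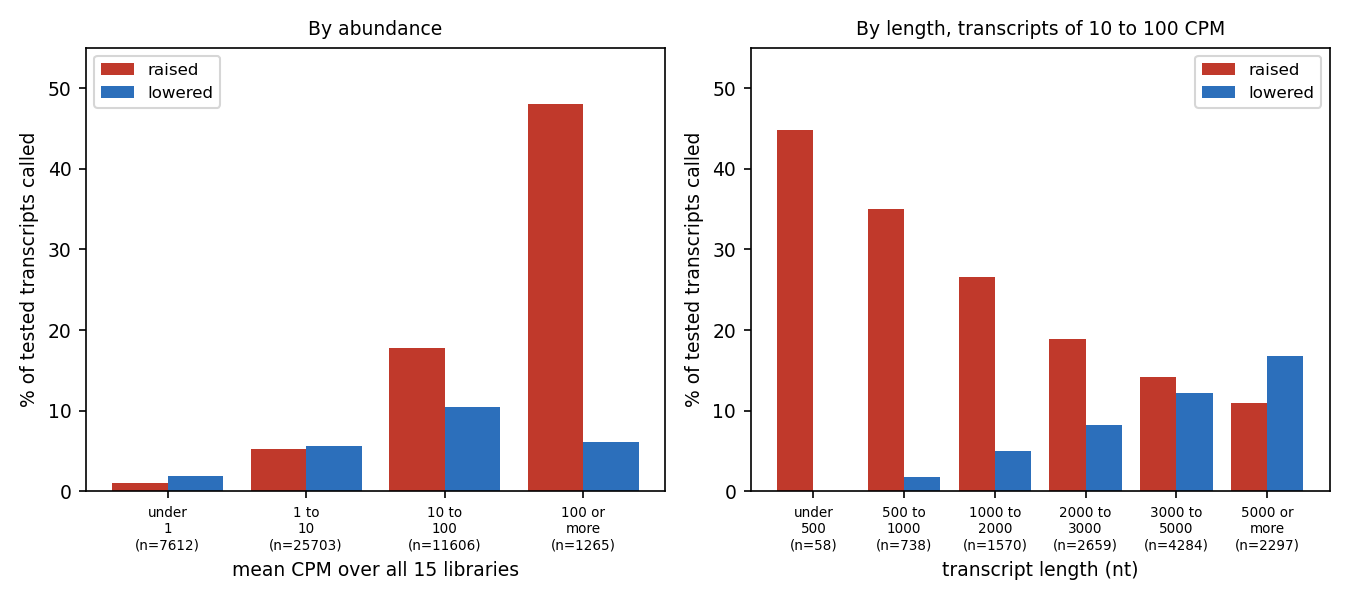
Percentage of tested transcripts called raised or lowered at 4 h, by mean CPM over all 15 libraries (left) and by length among transcripts of 10 to 100 CPM (right), with the number tested under each pair of bars. The raised share reaches 48.0% at 100 CPM or more, and at 10 to 100 CPM it falls with length from 44.8% to 11.0% while the lowered share reaches 16.8%.

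The most abundant raised transcripts were examined one by one. Among 2827 raised transcripts with at least 10 CPM at 4 h and no overlap between the groups, the first by 4 h level was ENSMUST00000093902.11 (16716 nt). It measured 3464, 1047 and 818 CPM in untreated replicates 1 to 3 and 24118, 15360 and 22167 CPM at 4 h. Untreated replicate 1 stood above the other two, and the groups did not overlap, as the selection required of every transcript described here by rank. The log2 fold change was 3.90 ± 0.43 (SE, adjusted p = 0.000384), and the 3 same-numbered pairs gave 2.80, 3.87 and 4.76. Its mean was 1962 CPM ± 1553 (SD, n = 3) at 30 min, 2432 ± 2116 at 1 h and 9703 ± 4405 at 2 h, so the means at 2 h and 4 h stood above the earlier ones. Replicate 1 was the highest of the 3 at every time. At 4 h it also had 2140 TPM, number 5 among the raised transcripts per length. With only the 6 libraries in the fit its adjusted p was 0.061.

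Next in the list were a 7417 nt transcript and a 3782 nt transcript. The 7417 nt transcript rose from 562, 278 and 115 CPM in untreated cells to 6592, 6931 and 4927 CPM (log2 fold change 4.52 ± 0.45, adjusted p = 0.000247). The 3782 nt transcript rose from 40.6, 14.9 and 9.48 CPM to 3181, 8681 and 4853 CPM (log2 fold change 8.004 ± 0.91, adjusted p = 0.000408). The untreated libraries fell in the same order, replicate 1 highest, in both. Per length the 3782 nt transcript was the second highest of all raised transcripts at 4 h, at 2603 TPM.

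Other abundant raised transcripts started from low levels. A 4192 nt transcript measured 0.279, 0.273 and 2.08 CPM in untreated cells and 4587, 3540 and 1225 CPM at 4 h, with 294 CPM on average at 2 h (log2 fold change 11.74 ± 1.55, adjusted p = 0.000869). A 2623 nt transcript went from 3.46, 4.83 and 11.3 CPM to 2784, 5005 and 2334 CPM (log2 fold change 8.92 ± 1.07, adjusted p = 0.000523). Its mean was already 470 CPM at 30 min and 1429 CPM at 1 h, an early course that the 4192 nt transcript did not share, at 0.756 and 5.66 CPM.

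Others were high throughout and rose modestly. A 123179 nt transcript, the longest of the list, measured 1802, 2808 and 1396 CPM in untreated cells and 4547, 6513 and 3014 CPM at 4 h (log2 fold change 1.22 ± 0.19, adjusted p = 0.002209). Per length it had 64.3 TPM at 4 h, number 1410 among the raised transcripts. A 3841 nt transcript rose from 1346, 1804 and 1585 CPM to 3285, 4241 and 3360 CPM (log2 fold change 1.203 ± 0.23, adjusted p = 0.006776), with 1715 TPM at 4 h.

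Across the 15 most abundant raised transcripts the 4 h level ran from 2405 to 20549 CPM and the log2 fold change from 1.203 to 11.74 (median 4.52). Lengths ran from 2623 to 123179 nt. All 15 had their highest mean at 4 h among the 5 groups. The 2 h mean was 9.42% to 80.4% of the 4 h mean (median 59.2%). By the edgeR test 14 of the 15 passed for 4 h against 30 min, and 0 of 15 for 4 h against 2 h (lowest adjusted p = 0.117, unadjusted p under 0.05 for 9). Of all tested transcripts, 6.79% were higher at 4 h than at 30 min and 0.338% higher than at 2 h. The 15 were chosen by their 4 h level, which enters both tests, so these counts are a description. Together they held 1.47% of the CPM of tested transcripts in untreated cells and 7.29% at 4 h, with the most abundant transcript of the series left aside.

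**Figure D3:**
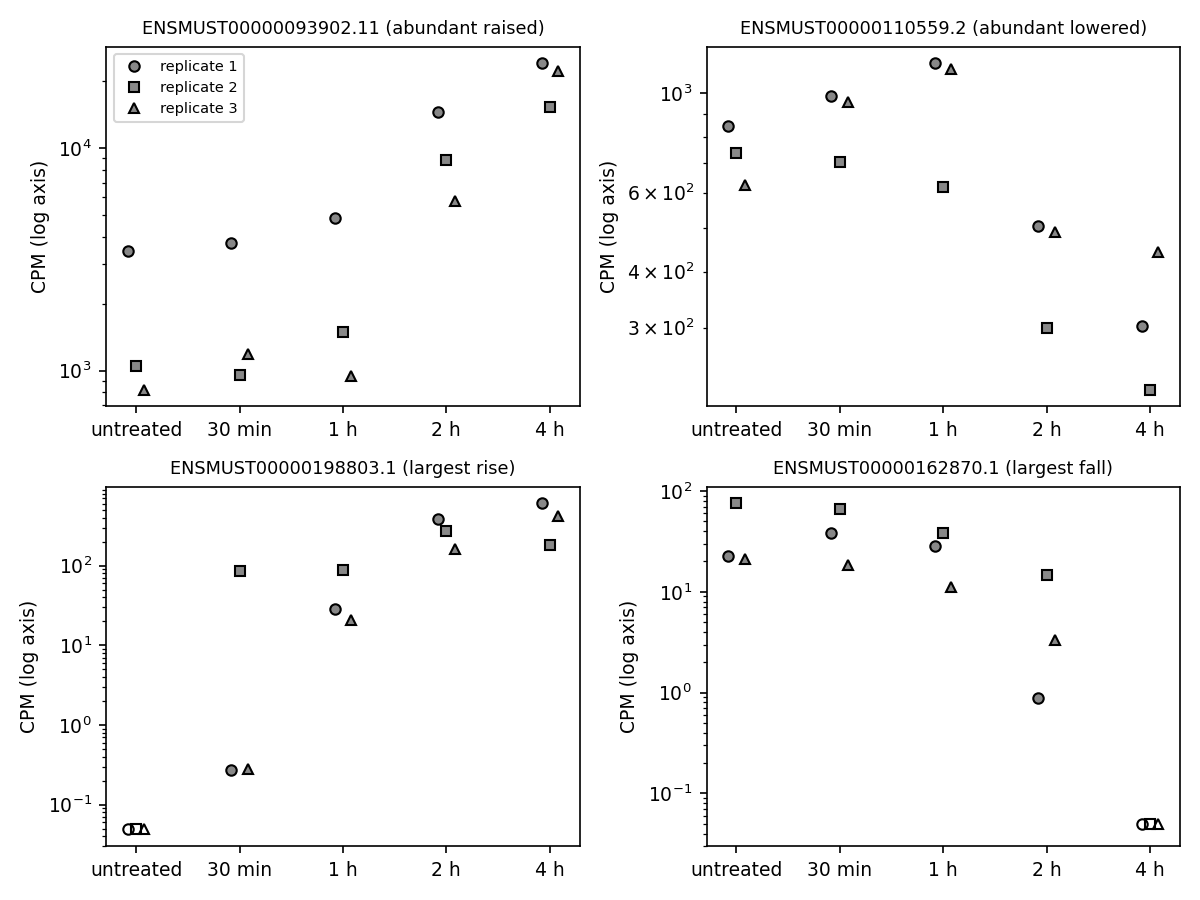
CPM in each of the 15 libraries, on a log axis, of the transcripts ranked first by abundance and by fitted size of change in each direction, with a symbol for each replicate number. Open symbols at the lower edge are libraries at 0: the largest rise by fitted value is at 0 in all untreated libraries and the largest fall by fitted value in all 4 h libraries.

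By fitted log2 fold change, the largest rises were mostly of transcripts with estimated counts rounding to 0 in untreated cells. Among the same 2827, the first by fitted value was ENSMUST00000198803.1 (1836 nt), with an estimated count rounding to 0 in all 3 untreated libraries and 616, 180 and 424 CPM at 4 h. Its estimated level was at least 1548-fold higher at 4 h, taking 3 counts in each untreated library as the bound. The adjusted p was 0.009651. It was lost without all libraries numbered 1 (0.093) or 3 (0.076) and with only the 6 libraries fitted (0.053). At 30 min replicate 2 had 85.5 CPM and the other two 0.272 and 0.277 CPM, whereas at 2 h all 3 lay between 161 and 387 CPM. The test between 4 h and 30 min did not pass (adjusted p = 0.107).

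Of the 10 largest rises, 9 had 0 in every untreated library, and their bounds ran from at least 84.4-fold to at least 2956-fold. The order by fitted value is thus not the order by bound. The other, of 555 nt, went from 0.0304 to 171 CPM on average, 5618-fold. Its untreated values were 0, 0.0911 and 0 CPM, below the floor of 3 counts, so this ratio is not comparable with the bounds. Of the 10, 0 had whole estimated counts in all 6 libraries, so the bounds depend on how reads were divided among isoforms. The highest bound rested on 1 library, that of a 2790 nt transcript with 2.31, 120 and 2207 CPM at 4 h: without replicate 3 it was at least 233-fold. Leaving out 1 library moved 2 other bounds by more than 1.5 times, from 494 to 181 without replicate 1 (648 nt) and from 290 to 156 without replicate 2 (2737 nt). The 4 h levels of the 10 were 22.2 to 776 CPM, well below those of the most abundant raised transcripts. A 2604 nt transcript varied little between the 4 h libraries, at 195, 156 and 165 CPM. Its 2 h mean was 7.32 CPM, 4.26% of its 4 h mean, and rested mostly on replicate 1 (21.4, 0 and 0.508 CPM).

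By CPM, fewer repressed transcripts were abundant in untreated cells than induced ones at 4 h. In the lowered set 138 transcripts had at least 100 CPM in untreated cells and 1 had at least 1000 CPM. In the raised set 1043 and 60 did so at 4 h. TMM factors scale 4 h levels up relative to untreated ones, and these counts were not made with library size alone. Among 1410 lowered transcripts with at least 10 CPM and no overlap between the groups, the first by untreated level was ENSMUST00000110559.2 (13181 nt). It measured 846, 735 and 623 CPM in untreated cells and 303, 218 and 442 CPM at 4 h. The log2 fold change was -1.26 ± 0.25 (SE, adjusted p = 0.007221). Its mean was 882 CPM ± 156 (SD, n = 3) at 30 min, 972 ± 307 at 1 h and 432 ± 115 at 2 h, so the means at 30 min and 1 h were not below the untreated mean. The call was lost without the block (adjusted p = 0.077), with only the 6 libraries fitted (0.146) and without all libraries numbered 1 (0.156) or 2 (0.123).

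The falls in the list varied in depth. The second, of 7299 nt, had a log2 fold change of -1.54, and 3 others fell less than the first, with values of -0.76, -1.104 and -1.101. Rank 3, a 6440 nt transcript, dropped from 279, 955 and 165 CPM in untreated cells to 17.0, 54.9 and 16.01 CPM at 4 h (log2 fold change -3.83 ± 0.40, adjusted p = 0.000306). It was also lower at 4 h than at 2 h, the only one of the 15 first in this list for which that test passed (adjusted p = 0.044). Replicate 2 was the highest of the 3 libraries in both groups.

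Very long transcripts were among them. A 15399 nt transcript went from 494, 484 and 398 CPM to 40.7, 14.5 and 110 CPM (log2 fold change -3.25 ± 0.58, adjusted p = 0.004273). One of 15004 nt went from 446, 184 and 106 CPM to 0, 0.898 and 4.82 CPM (log2 fold change -6.35 ± 1.54, adjusted p = 0.019383).

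Of 18 lowered transcripts with at least 209 CPM in untreated cells, 15 had no overlap between the groups and make up this list. Across these 15 the untreated level ran from 209 to 735 CPM and the log2 fold change from -0.76 to -6.35 (median -1.87). Their lengths were 2969 to 15399 nt. Of these, 13 had their lowest mean at 4 h and 13 passed the test of 4 h against 30 min. Of all 46186 tested transcripts, 11906 had their lowest mean at 4 h, and 5.59% were lower at 4 h than at 30 min. The list required 4 h levels below untreated ones, so its counts are a description. The 2 h mean was 79.5% to 2913% of the 4 h mean, with a median of 137%.

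By fitted log2 fold change, the largest falls were of transcripts at moderate levels whose estimated counts reached 0. ENSMUST00000162870.1 (1098 nt) measured 22.9, 76.6 and 21.3 CPM in untreated cells, or 410, 841 and 184 estimated counts, and had a count of 0 in all 3 libraries at 4 h. Its estimated level was at least 99.3-fold lower at 4 h, with 3 counts in each 4 h library as the bound (adjusted p = 0.000521, and 0.063 with only the 6 libraries fitted). Without untreated replicate 2 the bound was 54.5-fold. Its mean was 41.3 CPM ± 24.4 (SD, n = 3) at 30 min, 25.9 ± 13.6 at 1 h and 6.28 ± 7.35 at 2 h, and 4 h differed from 2 h by the test (adjusted p = 0.0228). All 10 of the largest falls had 0 in every 4 h library, from untreated means of 11.9 to 40.3 CPM, and their bounds ran from at least 29.5-fold to at least 99.3-fold. Of these 10, 0 had whole estimated counts in all 6 libraries, so the bounds depend on how reads were divided among isoforms. The 15004 nt transcript described above, outside this list, fell 129-fold by group means. Leaving out 1 untreated library moved 2 other bounds by more than 1.5 times, from 56.0 to 32.1 without replicate 1 (3014 nt) and from 29.5 to 15.4 without replicate 3 (4122 nt). Each of the 10 passed the test of 4 h against 30 min and 2 that of 4 h against 2 h, where 0.491% of all tested transcripts were lower at 4 h. The 10 were chosen for their 4 h values, which enter these tests.

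Raised and lowered transcripts differed in length. The median length was 2406 nt for raised, 3082 nt for lowered and 2088 nt for all tested transcripts. Of 13385 tested transcripts under 1000 nt, 982 were raised and 334 lowered, so that 74.6% of the calls were raised. Of 4529 transcripts of at least 5000 nt, 542 were raised and 543 lowered (49.95% raised). With library size alone the levels of both shares fell, to 35.7% and 16.2%, and their order was kept.

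The pattern was also seen within a class of mean CPM over all 15 libraries. This mean, like the mean TPM used below, includes libraries in which induced transcripts are high. Length classes by the untreated level were not made. Among transcripts of 10 to 100 CPM, those of 500 to 1000 nt had 258 raised and 13 lowered of 738, those of 3000 to 5000 nt had 609 and 522 of 4284, and those of at least 5000 nt had 253 and 385 of 2297. At a fixed CPM a short transcript has a higher level per length. At 10 to 100 TPM the raised share of the calls fell from 78.2% at 500 to 1000 nt to 55.9% at 5000 nt or more. The share of tested transcripts that were raised did not fall there, at 12.1% and 19.8%. The median standard error fell with length at 10 to 100 TPM, from 0.58 to 0.32 between these classes; its part in the shares was not tested.

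Whether reads are shared among isoforms can be read in part from the estimated counts. For 1343 tested transcripts all 6 estimated counts were whole to within 0.001, as when no read is divided. These made up 2.91% of tested, 4.12% of raised and 4.49% of lowered transcripts. Of them 169 were raised and 130 lowered, with 33 raised and 4 lowered under 1000 nt and 10 raised and 19 lowered at 5000 nt or more. For all others the estimated counts depended on how reads were divided, an error the files do not hold.

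The sets called at 4 h moved in steps over the earlier times. With the most abundant transcript left out, the 4097 raised transcripts held 17.1%, 17.2% and 13.9% of the counts in the untreated libraries and 53.9%, 50.7% and 46.5% at 4 h. In between the mean share was 22.9% ± 3.8 (SD, n = 3) at 30 min, 26.8% ± 3.9 at 1 h and 38.7% ± 4.8 at 2 h. The 2895 lowered transcripts held 13.6%, 13.9% and 12.4% in untreated cells and 1.87%, 2.17% and 2.82% at 4 h, with 10.1% ± 1.8, 8.10% ± 1.29 and 4.41% ± 0.71 at the 3 earlier times. The untreated and 4 h shares are selected to differ, so no test is given.

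**Figure D4:**
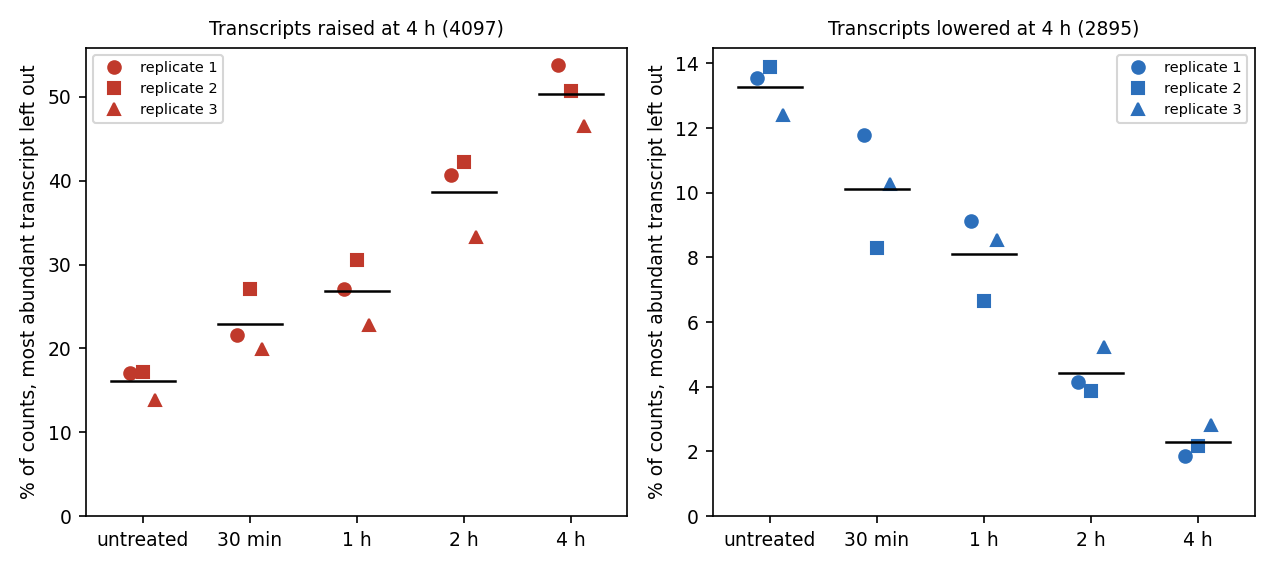
Share of the estimated counts, most abundant transcript left out, held in each library by the transcripts raised (left) and lowered (right) at 4 h; symbols are replicate numbers and bars are group means. The raised set goes from a mean of 16.1% to 50.4% and the lowered set from 13.3% to 2.29%.

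The same course appeared in the fold changes against untreated cells, which come from the same counts. The raised set had a median log2 change of 0.44 after 30 min, 0.73 after 1 h, 1.86 after 2 h and finally 2.39. The corresponding medians of the lowered set were -0.27, -0.70, -1.34 and -2.23. All these comparisons share the 3 untreated libraries. The highest of the 5 group means was at 4 h for 3066 of the 4097 raised transcripts, and the lowest at 4 h for 2470 of the 2895 lowered ones. Of all 46186 tested transcripts, 11606 had their highest and 11906 their lowest mean at 4 h. Both sets were chosen for their 4 h values, so these counts are a description.

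Direct tests against the earlier times gave many calls at 30 min and few at 2 h. Between 4 h and 30 min, 3137 transcripts were higher at 4 h (6.79% of those tested) and 2583 lower (5.59%). Between 4 h and 2 h, 156 were higher (0.338%) and 227 lower (0.491%). A transcript called at 4 h and not called between 4 h and 2 h is not shown to have kept its 2 h level.

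The counts lay in fewer transcripts at 4 h. Without the most abundant transcript, 50% of the counts lay in 2505, 2406 and 2454 transcripts in the untreated libraries and in 999, 826 and 1138 at 4 h. The groups did not overlap, and the mean difference was -1467 transcripts (exact permutation test, two-sided p = 0.1, the smallest that 3 against 3 libraries allow). The number of transcripts with a count, at an equal depth of 5068577 counts, was 57821, 55289 and 54853 in untreated cells and 50124, 48187 and 51088 at 4 h. These groups did not overlap either, with means of 55988 ± 1603 (SD, n = 3) and 49800 ± 1478 (exact p = 0.1). A more uneven spread of the counts lowers the number detected at a given depth, so the 2 measures are not independent.

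**Figure D5:**
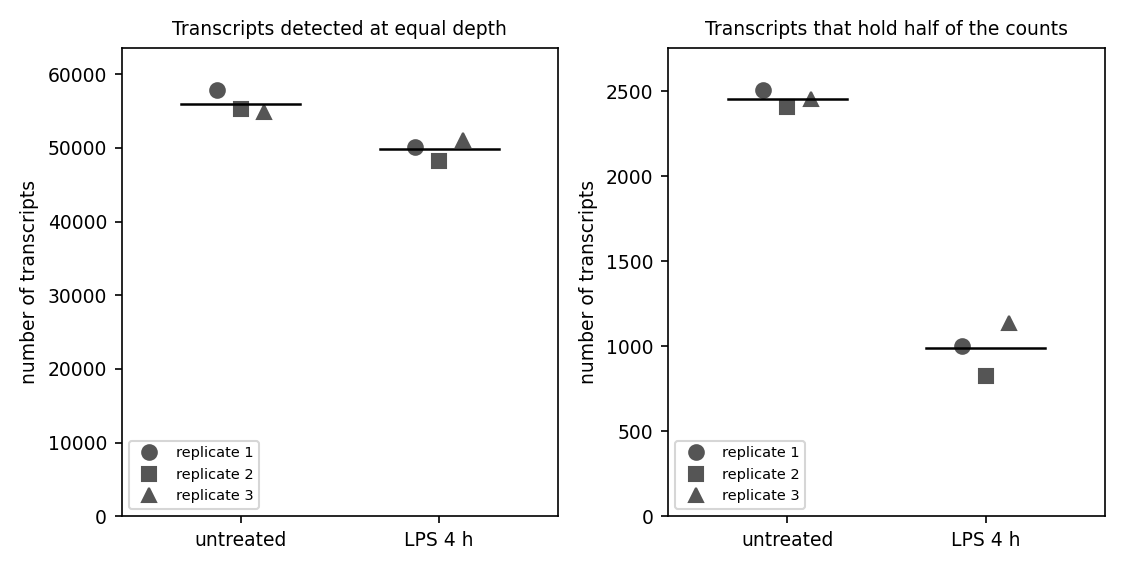
Number of transcripts detected at an equal depth of 5068577 counts (left) and number that together hold 50% of the counts (right) in each untreated and 4 h library, most abundant transcript left out; bars are group means. All 4 h libraries lie below all untreated ones in both panels.

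Within the raised set a small number of transcripts carried much of the level. The 15 of highest 4 h mean held 14.3% of the set's CPM at 4 h, and 237 of the 4097 held 50%. In the lowered set the 15 highest in untreated cells held 8.504%, and 344 of 2895 held 50%.

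The single most abundant transcript of the series, ENSMUST00000217116.1 (3756 nt), was not called at 4 h (log2 fold change 0.92 ± 0.56, adjusted p = 0.311). It held 11.9%, 17.5% and 34.8% of the estimated counts in untreated replicates 1 to 3 and 12.5%, 19.2% and 41.2% at 4 h. The fold change uses TMM library sizes and the share unscaled counts, so they are not on one scale. The groups overlapped and in these 6 libraries the share followed the replicate number, while counting error was small (95% Wilson interval 41.179% to 41.241% in the 4 h library of highest share). At 1 h replicate 3 was also highest (27.7%), but at 30 min and 2 h replicate 2 was (37.6% and 29.2%). The difference between the group means was 2.93 percentage points (exact permutation test over libraries, without the pairing, two-sided p = 0.6). Within same-numbered pairs the share was higher at 4 h by 0.621, 1.77 and 6.41 points. Leaving the transcript out before the fit gave 3871 raised and 3026 lowered transcripts.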

How the data were processed

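Chromatin-associated RNA of 15 libraries was quantified per transcript with kallisto 0.44.0, per the submitters' processing notes. The sources used here do not give the annotation or genome build. Each deposited table holds the estimated counts and TPM values (scaled for effective length and depth) of 113193 transcripts, with their length in nucleotides. Libraries were unstranded per the labels, so a transcript and an overlapping antisense one cannot be separated.

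Groups and replicate numbers came from the titles. Estimated counts were rounded, filtered with filterByExpr (minimum count 10, minimum total 15) and tested with edgeR 4.0.16 in R 4.3.3 by the quasi-likelihood test, with TMM factors. The model held all 15 libraries, their groups and, as a block, the replicate number. The 46186 tested transcripts held 99.1% to 99.6% of the counts. Benjamini-Hochberg adjustment ran over all of them, with calls at an adjusted p under 0.05. Standard errors are the fitted log2 fold change divided by the square root of F. CPM uses TMM library sizes, and differences within pairs are of log2(CPM + 0.5). The script was tested on simulated data.

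The block was used because same-numbered libraries deviated together from their group means: all 30 such pairs of different groups correlated over 0.1 (0.239 to 0.518), the 3 between untreated and 4 h included, against -0.34 to -0.0052 for the 60 pairs of different numbers. The labels do not say what a number shares. No label states separate cultures or mice for the replicates; p-values thus reflect the spread among these libraries, which may be technical. Wilson intervals and the floor of 3 counts cover counting error only.

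Transcripts were named by rank 1 of 4 rankings (abundance and fold, each direction) among called transcripts with at least 10 CPM in the higher group and no overlap between groups. The full rule, of 15 and 10 named per ranking with gene symbols, could not be applied because no table pairs the identifiers with genes; others are described by length. Members, lists and tests were chosen with earlier results of these data known. Gene sums, gene lists and cell type markers were not analysed here. Alternatives were DESeq2 1.42.0, limma 3.58.1 on log2(TPM + 1) and log2(TPM + 0.1), other scalings and filters, no block, and leaving out libraries.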

Additional observations from a re-analysis of the deposited data

Results flagged for a closer look

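Of the 4 transcripts named by rank, 3 passed a test between 4 h and an earlier time. They were chosen by their 4 h level or change, and the same 4 h libraries enter these tests, so the values are a description. ENSMUST00000162870.1, first among the falls by fitted value, had a fitted log2 difference of -8.73 at 4 h against 2 h (adjusted p = 0.0228). Against 30 min the difference was -11.75 (adjusted p = 0.000657). Both depend on the prior count, since all 4 h libraries were at 0. ENSMUST00000093902.11, the most abundant raised transcript, was higher at 4 h than at 30 min by 3.73 (adjusted p = 0.000577), while the test against 2 h did not pass (adjusted p = 0.214). ENSMUST00000110559.2, first by untreated level among the lowered transcripts without overlap, had a difference of -1.48 between 4 h and 30 min (adjusted p = 0.00375), and the test against 2 h did not pass (adjusted p = 0.544).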

How the results depend on the processing

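Counts of raised and lowered transcripts changed by more than 1.5 times under several settings. Without the replicate block they were 1808 and 1076, of which 1804 and 1074 were also called with it. They were 367 and 52 with only the 6 libraries fitted. Library size alone gave 2030 and 6980, and 2308 and 7881 when the most abundant transcript was also left out, an alternative chosen after seeing the data. DESeq2 called 5373 lowered, limma on log2(TPM + 1) 10988, and limma on log2(TPM + 0.1) 2368 raised and 8917 lowered. Transcripts with whole estimated counts, also chosen after seeing the data, gave 169 and 130, with fewer transcripts counted by construction. Leaving out libraries or replicate numbers gave 1029 to 3673 raised and 357 to 2451 lowered transcripts, the fewest without all libraries numbered 1. The cause of the other differences was not tested. DESeq2 size factors, leaving out the most abundant transcript with TMM, no filter and a minimum of 5 CPM kept both counts within 1.5 times, and no setting called a transcript in the opposite direction. Gene-level and gene-list alternatives were not run, since identifiers could not be paired with genes. Leaving out libraries from the fold bounds was also chosen after seeing the data; it moved 3 of 9 bounds of the largest rises and 3 of 10 of the largest falls by more than 1.5 times.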
